A study of Mus musculus with 12 samples.

Results

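H3K27ac was read at 10 genes that mark macrophages of the brain's borders, circulating monocytes and neutrophils, in chromatin of CD11b-selected mouse forebrain microglia. The genes were Mrc1, Cd163, Lyve1, Pf4, Ms4a7, F13a1, Cbr2, Ccr2, Ly6c2 and S100a8. A window belonged to a gene when the deposited table named that gene as the nearest one and placed the window within 100 kb of its transcription start site (TSS). By this rule 9 of the 10 genes had windows, 20 windows in all, out of 67822 windows and 15879 genes with such a window in the table. S100a8 had none.

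The study compared Nlrp3-/- mice, a Cias1 knockout, with wild-type mice of C57BL/6N background. NLRP3 is the sensor of an inflammasome, a complex that activates caspase-1. Each genotype had 3 H3K27ac libraries and 3 input libraries. Input is sheared chromatin without immunoprecipitation. The 4 groups were knockout H3K27ac, wild-type H3K27ac, knockout input and wild-type input. All cells were taken by magnetic selection for CD11b after tissue dissociation and myelin removal, and no further sort is described. The labels give neither the age nor the sex of the mice, and do not say whether replicates are separate animals, so p-values measure the spread between libraries, which may be technical.

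H3K27ac, an acetyl group on a lysine of histone H3, sits at promoters and enhancers in use. CD11b is carried by microglia, and also by border macrophages, monocytes and neutrophils, so a CD11b selection alone does not separate these cells. Border macrophages of the meninges, perivascular spaces and choroid plexus express scavenger and endocytic receptors that parenchymal microglia express little of, and CCR2 and Ly6C mark classical monocytes. In bulk chromatin, few cells with a strong mark and many cells with a weak one cannot be told apart.

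The H3K27ac libraries held 3726550 to 5028129 tags, with 39.1% to 46.1% of them in windows. The input libraries held 3287009 to 6961590 tags, with 8.31% to 9.32% in windows. The targeted gene was lower in the knockout as labelled: the windows of Nlrp3 summed to 196, 226 and 148 H3K27ac tags in knockout libraries and 556, 457 and 511 in wild-type libraries (log2 fold change −1.65, SE 0.17, adjusted p = 2.15e-06 by edgeR quasi-likelihood). Wild-type replicate 1 was the one replicate with 0 tags at Y-linked promoters, in H3K27ac and in input, so its source differed from that of the other wild-type replicates. Microglia genes carried strong H3K27ac in both genotypes. P2ry12, a purinergic receptor of microglia, had H3K27ac over input of 24.4 ± 1.77 in knockout libraries and 19.6 ± 2.53 in wild-type libraries (mean ± SD, n = 3 each). These ratios are the CPM of a library, its tags scaled by the total of all its tags, summed over the windows of a gene, over the mean input CPM of the same genotype, with 0.5 CPM added to both.

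Most marker windows lay away from promoters. A promoter window, within 1 kb of the TSS, was present for 2 of the 9 genes with a window (22.2%), Mrc1 and Pf4, against 73.0% of the genes with a window in the table and 95% of 20 homeostatic microglia genes. Both promoters are shown because they are the places where the mark could be read at the start of a marker gene. The sequences are RefSeq promoters of GRCm38.p6, the same assembly as mm10, from 250 bases before to 50 after the annotated start, on the plus strand: chr2:14229164-14229463 for Mrc1 and chr5:90772185-90772484 for Pf4. Capitals mark matches, on either strand, to letters bound by myeloid factors.

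Mrc1: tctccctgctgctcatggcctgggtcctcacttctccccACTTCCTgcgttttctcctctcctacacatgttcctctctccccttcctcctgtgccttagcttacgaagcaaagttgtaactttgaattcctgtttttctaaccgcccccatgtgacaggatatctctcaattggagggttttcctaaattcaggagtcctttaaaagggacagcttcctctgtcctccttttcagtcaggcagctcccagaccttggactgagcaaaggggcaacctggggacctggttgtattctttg
Pf4: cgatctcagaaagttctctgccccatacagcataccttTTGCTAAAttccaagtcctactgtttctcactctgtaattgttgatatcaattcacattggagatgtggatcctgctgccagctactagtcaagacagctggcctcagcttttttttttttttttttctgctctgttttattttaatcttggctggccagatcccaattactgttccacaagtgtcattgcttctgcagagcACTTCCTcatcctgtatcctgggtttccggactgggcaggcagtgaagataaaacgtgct

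In the Mrc1 promoter the capitals are the reverse complement of AGGAAGT, a PU.1 motif, with the first base 211 bases before the start (position −211). In the Pf4 promoter the same motif stood at −10 on the minus strand, and TTGCNNAA, a C/EBP motif, at −212 on the plus strand. PU.1 is the lineage factor of macrophages and C/EBP factors act in monocytes and granulocytes. The PU.1 letters occurred in 9.35% of 32851 mouse promoters of this length and the C/EBP letters in 10.8%. Of the 10 markers 9 matched the promoter table, with 12 promoters. The PU.1 letters stood in a promoter of 5 of these 9 genes. The 2 promoters of Ly6c2 overlap by 266 bases and hold the same matches. Of the other motifs searched, the MAF half-site TGCTGAC was found at Cbr2 and in 4.67% of all promoters. The AP-1 motif TGANTCA was found at Ms4a7 and in 7.81%. The TATA box TATAAA was found at S100a8 and in 13.6%. An IRF motif was found at none of the markers and in 3.44% of all promoters. The overlap of one motif with another was allowed. A match describes letters and is no measure of binding.

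The 2 promoter windows held few tags. The Mrc1 window at chromosome 2, 14228720 to 14229720 (mm10), 194 bases upstream of the TSS, contains the sequence above. It held 8, 1 and 5 H3K27ac tags in knockout libraries and 3, 13 and 2 in wild-type libraries. Its input held 5, 2 and 2 tags in knockout libraries and 3, 5 and 3 in wild-type libraries. H3K27ac over input was 1.36 ± 0.71 in knockout and 1.40 ± 0.97 in wild type (SD, n = 3 each), and the H3K27ac and input CPM overlapped. The Pf4 window, chromosome 5, 90771996 to 90772996, held 1, 7 and 25 H3K27ac tags in knockout libraries and 0, 2 and 0 in wild-type libraries. Knockout replicate 3 held 25 of the 33 knockout tags, and the genotypes overlapped. Input was 2, 0 and 2 tags in knockout and 4, 1 and 2 in wild type. Over all libraries the knockout to wild-type ratio was 14.2, with an exact 95% interval of 3.63 to 122 that covers counting error only. In the fit without a filter on low counts, the edgeR quasi-likelihood adjusted p for Pf4 was 0.692 (unadjusted p = 0.0218). Both windows stood in the wild-type site list alone, as did 4 of the 20 marker windows (20%) against 16.3% of the table, while 0 of 20 stood in the knockout list alone against 8.18%.

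**Figure D1:**
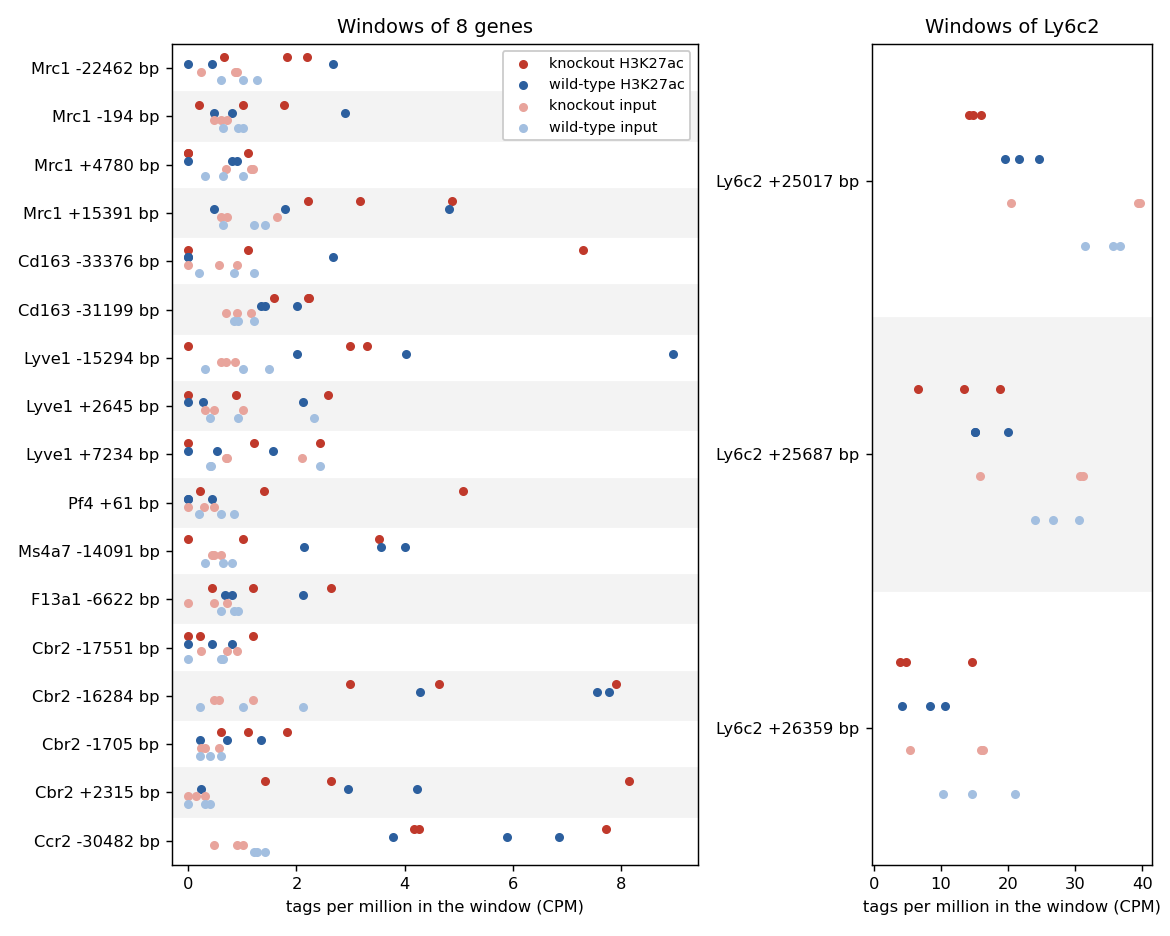
CPM in each of the 20 marker windows, 1 point per library, named by gene and distance from the TSS in bp. Points run from knockout H3K27ac to wild-type H3K27ac, knockout input and wild-type input. Ly6c2 has its own scale, and there most input points lie right of the H3K27ac points.

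Mrc1, Cd163 and Lyve1 encode endocytic receptors: the mannose receptor, the scavenger receptor for haemoglobin bound to haptoglobin, and a hyaluronan receptor. With all 12 libraries fitted together, each was called weakly above input, mostly from distal windows. Within 1 genotype only Cd163 was called, in knockout. Mrc1, over 4 windows, had 26, 28 and 38 H3K27ac tags in knockout libraries and 34, 27 and 4 in wild-type libraries. Input was 24, 11 and 13 tags in knockout and 15, 22 and 10 in wild type. Wild-type replicate 3 was the lowest H3K27ac library and lay below every wild-type input in CPM. H3K27ac over input was 1.82 ± 0.32 in knockout and 1.44 ± 1.02 in wild type (SD, n = 3 each). The best filled Mrc1 window lay in an intron of the gene, 15391 bases downstream of the TSS (chromosome 2, 14244305 to 14245305), with 10, 16 and 24 tags in knockout libraries and 18, 8 and 2 in wild-type libraries. It passed the test of H3K27ac against input per window (log2 1.43, SE 0.54, adjusted p = 0.0114 by edgeR quasi-likelihood). The others were an intronic window at 4780 bases, on an LTR16C repeat, and a window 22462 bases upstream, inside an intron of the neighbouring gene Tmem236.

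Cd163 had 2 intergenic windows, 33376 and 31199 bases upstream, and none within 10 kb. Their sum was 15, 8 and 47 H3K27ac tags in knockout libraries and 5, 21 and 6 in wild-type libraries, against 12, 6 and 3 input tags in knockout and 8, 7 and 7 in wild type. In knockout replicate 3, 36 of the 47 tags lay in the farther window (chromosome 6, 124270775 to 124271775), where knockout replicate 2 and wild-type replicates 1 and 3 had 0. The nearer window was even: 10, 8 and 11 tags in knockout libraries and 5, 9 and 6 in wild-type libraries, with all 6 H3K27ac CPM above all 6 input CPM.

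Lyve1 had 30, 28 and 6 H3K27ac tags in knockout libraries and 18, 16 and 47 in wild-type libraries over 3 windows. Input was 18, 10 and 8 tags in knockout and 20, 9 and 12 in wild type. The window with most H3K27ac tags was 15294 bases upstream and lies in an exon of another gene, Mrvi1 (chromosome 7, 110877747 to 110878747). It held 15, 15 and 0 tags in knockout libraries and 15, 9 and 38 in wild-type libraries, 30 of the 64 Lyve1 tags in knockout and 62 of the 81 in wild type. The 2 intronic windows of Lyve1 itself, at 2645 and 7234 bases, had mean H3K27ac over input of 1.52 and 1.02 in knockout and 0.756 and 0.755 in wild type.

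The remaining border macrophage markers had 1 window each apart from Cbr2 with 4. Ms4a7 encodes a membrane-spanning protein of the MS4A family. Its window, 14091 bases upstream on an L1VL4 repeat (chromosome 19, 11349737 to 11350737), held 16, 0 and 5 H3K27ac tags in knockout libraries and 8, 16 and 17 in wild-type libraries. Input was 3, 2 and 2 tags in knockout and 3, 4 and 1 in wild type. The 3 wild-type libraries all stood above input, and of the knockout libraries replicates 1 and 3 did. F13a1 encodes the A chain of coagulation factor XIII. Its window, 6622 bases upstream (chromosome 13, 37056366 to 37057366), held 2, 6 and 13 H3K27ac tags in knockout libraries and 3, 3 and 9 in wild-type libraries, against 5, 0 and 2 input tags in knockout and 4, 3 and 3 in wild type. F13a1 and Pf4 did not pass the filter on low counts.

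Cbr2, a carbonyl reductase, had the most even signal of the border macrophage markers. Its 4 windows summed to 39, 65 and 55 H3K27ac tags in knockout libraries and 35, 57 and 36 in wild-type libraries, against 14, 9 and 4 input tags in knockout and 5, 12 and 10 in wild type. Every H3K27ac CPM lay above every input CPM, and H3K27ac over input was 4.78 ± 0.91 in knockout and 3.99 ± 0.82 in wild type (SD, n = 3 each). Of its windows, 2 carried most tags. The one 16284 bases upstream, intergenic on an RMER16_Mm repeat (chromosome 11, 120747805 to 120748805), held 21, 15 and 39 tags in knockout libraries and 16, 35 and 32 in wild-type libraries. The one over the 3′ untranslated region (chromosome 11, 120729206 to 120730206) held 12, 41 and 7 in knockout libraries and 11, 19 and 1 in wild-type libraries. The window nearest the TSS, 1705 bases upstream, held at most 9 tags in any library. Cbr2 lies in a stretch with 28 windows within 100 kb of its start, of which 4 are assigned to it, so nearest-gene assignment decides its sum.

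Ccr2, the receptor by which monocytes follow CCL2, had 1 window, 30482 bases upstream (chromosome 9, 124071201 to 124072201). It held 35, 21 and 21 H3K27ac tags in knockout libraries and 22, 17 and 29 in wild-type libraries, and 7, 3 and 2 input tags in knockout and 6, 7 and 4 in wild type. All H3K27ac CPM lay above all input CPM, with a ratio of 4.56 ± 1.57 in knockout and 3.34 ± 0.87 in wild type (SD, n = 3 each). No window lay within 10 kb of the Ccr2 start.

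Ly6c2, a glycolipid-anchored surface protein of the Ly6 family, differed from the other markers in its input. Its 3 windows, 25017 to 26359 bases from the TSS, overlap each other by 328 and 330 bases, so tags in the overlaps count for both windows. They summed to 146, 128 and 244 H3K27ac tags in knockout libraries and 179, 235 and 165 in wild-type libraries. Input was 604, 139 and 368 tags in knockout and 416, 324 and 253 in wild type. Input CPM per window was 13.9 to 28.9 in knockout libraries and 21.9 to 29.4 in wild-type libraries, where the median window of the same libraries had 0.600 to 0.718 and 0.608 to 0.812. In each input library the lowest of the 3 windows was above 99.7% to 99.9% of all windows. H3K27ac over input was 0.503 ± 0.172 in knockout and 0.606 ± 0.088 in wild type (SD, n = 3 each). Of the windows 2 overlap a B1_Mm repeat, and the Ly6 family has close copies. How tags that fit several places were treated is not given in the sources used here, so tags of Ly6c2 may come from elsewhere.

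S100a8 encodes a calcium-binding protein of neutrophils and monocytes that pairs with S100a9. No window was assigned to it. Of 7 windows within 100 kb of its start, the nearest lay 16008 bases upstream, was assigned to S100a7a, and held 0, 0 and 0 H3K27ac tags in knockout libraries and 0, 1 and 0 in wild-type libraries, against 3, 0 and 0 input tags in knockout and 5, 5 and 8 in wild type. S100a9 had 1 window, with 2, 3 and 5 H3K27ac tags in knockout libraries and 0, 1 and 2 in wild-type libraries, and 3, 3 and 2 input tags in knockout and 2, 2 and 0 in wild type. H3K27ac over input at S100a9 was 1.08 ± 0.27 in knockout and 0.942 ± 0.304 in wild type (SD, n = 3 each). Windows were placed on accessible sites, so H3K27ac outside them at S100a8 was not measured.

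**Figure D2:**
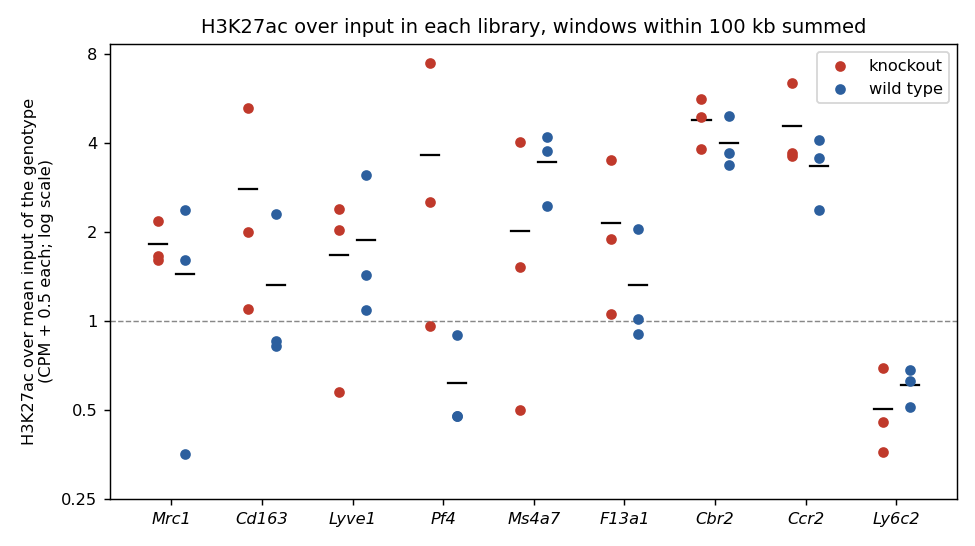
H3K27ac over mean input of the same genotype for the 9 markers with windows, 1 point per library with the mean as a line, on a log scale, knockout left of wild type. Cbr2 and Ccr2 lie between 2.38 and 6.37 in every library, and Ly6c2 below 1 in every library.

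Across the table most genes had H3K27ac above input, and the markers stood in the lower part of that distribution. All 12 libraries were fitted together with library sizes taken from all tags. Of 12468 genes tested, 91.6% were called higher than input (edgeR quasi-likelihood adjusted p under 0.05) and 0.521% lower. Of the 7 markers tested, 6 were higher and 1 was lower. Genes with low input could pass the filter on low counts only through H3K27ac, so these shares partly reflect the filter. Without it, 6 of 9 markers were higher and 1 lower, against 11611 of 15879 genes higher and 526 lower. The median log2 of H3K27ac over input was 1.14 for the 7 markers, against 2.77 for all genes. All 7 lay below that median, between the 0.71st percentile (Ly6c2) and the 38.0th (Cbr2). All 6 H3K27ac CPM lay above all 6 input CPM for 2 of the markers, Cbr2 and Ccr2, against 78.2% of tested genes, and for 3 of the 20 marker windows, against 46.5% of all windows.

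Cbr2 had a log2 of 2.39 (SE 0.31, adjusted p = 2.26e-09 by edgeR quasi-likelihood) and Ccr2 of 2.37 (SE 0.41, adjusted p = 1.02e-06). Ms4a7 followed at 1.97 (SE 0.66, edgeR adjusted p = 0.00541). Cbr2, Ccr2 and Ms4a7 differed from one another by less than the standard error of Ms4a7. Cd163 (1.14, SE 0.48, edgeR adjusted p = 0.0244), Lyve1 (0.93, SE 0.38, adjusted p = 0.0204) and Mrc1 (0.76, SE 0.35, adjusted p = 0.0403) passed narrowly. Ly6c2 was lower than input at −0.87 (SE 0.15, edgeR adjusted p = 1.60e-06). Microglia genes lay higher: P2ry12 at 4.50 (SE 0.13), Sall1 at 4.08 (SE 0.14), Cx3cr1 at 3.96 (SE 0.14) and Tmem119 at 3.55 (SE 0.17).

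These directions depend on the scaling. With TMM, which centres the median of all genes near 0 (a shift of −2.77), none of the 7 markers was called higher and 4 were called lower, against 29.7% of genes higher and 26.9% lower. With the tags outside windows as library size, chosen after seeing the data, the median shifted by 0.69 and 96.1% of genes were higher; 6 markers were higher and Ly6c2 was not called (−0.18, edgeR adjusted p = 0.283). The narrow calls also rested on single libraries. Mrc1 lost its call without any 1 of 8 libraries (log2 0.46 to 0.78): knockout H3K27ac replicate 3, each knockout input, wild-type H3K27ac replicates 1 and 2, and wild-type inputs 1 and 3. Cd163 lost it without knockout H3K27ac replicate 3 (0.65), knockout input 3 (0.99), wild-type H3K27ac replicate 2 (0.71) or wild-type input 2 (1.07). Lyve1 lost it without knockout H3K27ac replicate 1 (0.73), knockout input 3 (0.85), wild-type H3K27ac replicate 3 (0.61) or wild-type input 2 (0.78), and Ms4a7 without knockout H3K27ac replicate 1 (1.21). Cbr2, Ccr2 and Ly6c2 kept their calls without any 1 library. With H3K27ac and input of the same replicate number fitted as blocks, Mrc1 (edgeR quasi-likelihood adjusted p = 0.0709) and Cd163 (0.0838) were not called.

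**Figure D3:**
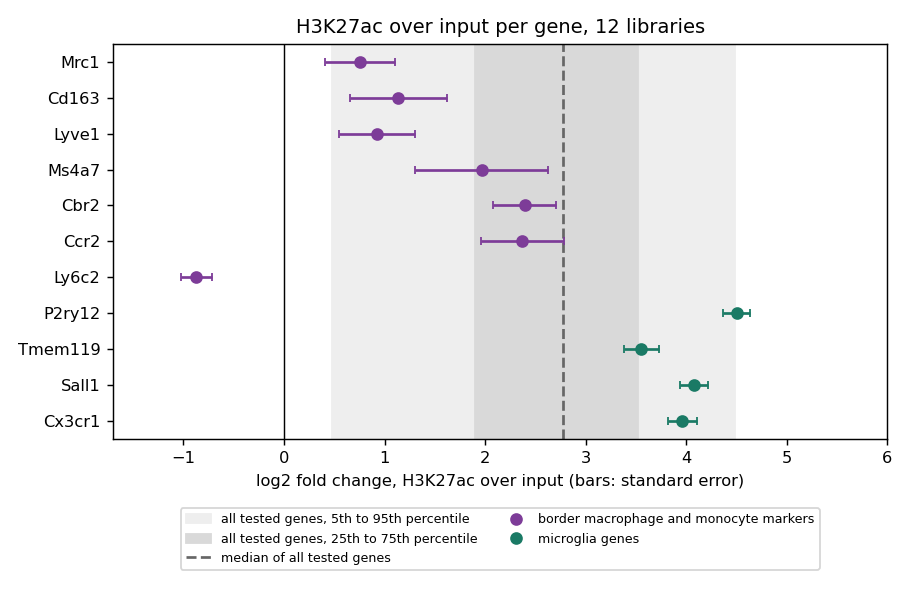
Fitted log2 of H3K27ac over input for the 7 tested markers (purple) and 4 microglia genes (green), with standard errors, over the spread of all 12468 tested genes (grey) and their median of 2.77 (dashed). The 7 markers lie left of the median and the microglia genes right of it.

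Within one genotype fewer markers passed. In knockout libraries, where 87.9% of genes were called higher than input and 0.337% lower, 3 of 7 markers were higher by edgeR, Ccr2 (2.69), Cbr2 (2.54) and Cd163 (1.75), and Ly6c2 was lower (−1.01). In wild-type libraries, where 85.6% of genes were higher and 0.449% lower, Ms4a7 (2.37), Cbr2 (2.25) and Ccr2 (2.05) were higher and Ly6c2 lower (−0.73). A marker that passed in one genotype alone was not shown to differ between them. The genotype difference of H3K27ac over input was called for 0% of the 12468 genes and 0 of 7 markers (edgeR quasi-likelihood, smallest marker adjusted p = 0.915, and 747 genes at an unadjusted p under 0.05). For the markers it ran from −0.81 (Ms4a7, SE 1.39) to 1.21 (Cd163, SE 0.96). Nlrp3, the targeted gene, was not called for this difference either (−0.92, SE 0.34, edgeR quasi-likelihood adjusted p = 0.761).

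Single windows gave the same picture with fewer tags. Of 40663 windows tested, 96.6% were higher than input and 0.477% lower. Of 9 marker windows tested, 6 were higher and the 3 of Ly6c2 were lower (edgeR quasi-likelihood adjusted p from 9.71e-08 to 0.0114). Windows with low input could pass the filter on low counts only through H3K27ac, so these shares partly reflect the filter. Without it, 6 of 20 marker windows were higher and 3 lower, against 41464 of 67820 windows higher and 2830 lower. With TMM 0 of the 9 marker windows tested were higher and 4 were lower, against 20.9% of windows higher and 10.8% lower. The strongest was the Cbr2 window over the 3′ untranslated region at a log2 of 3.95 (SE 0.74), followed by that 16284 bases upstream at 2.72 (SE 0.44) and the Ccr2 window at 2.37 (SE 0.42). The Ms4a7 window stood at 1.97 (SE 0.67) and the upstream Lyve1 window at 1.90 (SE 0.56).

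No marker was called between genotypes. In the comparison of 3 knockout with 3 wild-type H3K27ac libraries (edgeR quasi-likelihood with TMM), 0.206% of 12148 genes were called, 7 higher and 18 lower, and 0 of the 7 markers tested (smallest adjusted p = 0.932). At an unadjusted p under 0.05 by the same test there were 0 of these 7 markers as well. By DESeq2, at an adjusted p under 0.05, 0 of the 9 markers with a window were called. The median log2 fold change of the markers was −0.03, against 0.00 for all genes. Ms4a7 had −1.13 (SE 0.95) and Cd163 0.98 (SE 0.76), with all adjusted p values at or above the one above. Lyve1 had −0.56 (SE 0.59), Ly6c2 −0.35 (SE 0.25), Mrc1 0.26 (SE 0.58), Cbr2 0.10 (SE 0.38) and Ccr2 −0.03 (SE 0.53). The SE of each of the 5 markers other than Ly6c2 and Cbr2 exceeded 0.5, so a change of that size was not detectable in them at this depth. With SE of 0.25 and 0.38, a change of 0.5 in Ly6c2 or Cbr2 could be missed as well. CPM of the genotypes, scaled by all tags, overlapped for each of the 9 markers with a window. With CPM scaled by TMM they did not for 11.3% of the 12148 genes tested, which include 7 of the markers.

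Without wild-type replicate 1, the library with no Y-linked tags, 0 of 7 markers were called either; Mrc1 then had 0.81 and Ccr2 0.01, a change of sign. Without knockout replicate 3, which held the highest Cd163, Pf4 and F13a1 counts, Cd163 had −0.14. Per window, 0.0595% of 40370 windows were called and 0 of 9 marker windows, with log2 fold changes from −1.28 to 0.66. CPM of the genotypes, scaled by all tags, did not overlap in 1 of the 20 marker windows, that of Ly6c2 at 25017 bases. It held 67, 71 and 79 tags in knockout libraries and 92, 97 and 83 in wild-type libraries (log2 −0.54, SE 0.27, edgeR adjusted p = 0.998). With CPM scaled by TMM, such a separation was seen in 10.9% of the 40370 tested windows, which include 9 of the marker windows. The inputs of that Ly6c2 window overlapped, at 274, 68 and 169 tags in knockout and 173, 155 and 117 in wild type. In the inputs alone, 0.2% of 6511 genes were called, and 0 of the 3 markers that passed the filter, Mrc1, Lyve1 and Ly6c2.

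**Figure D4:**
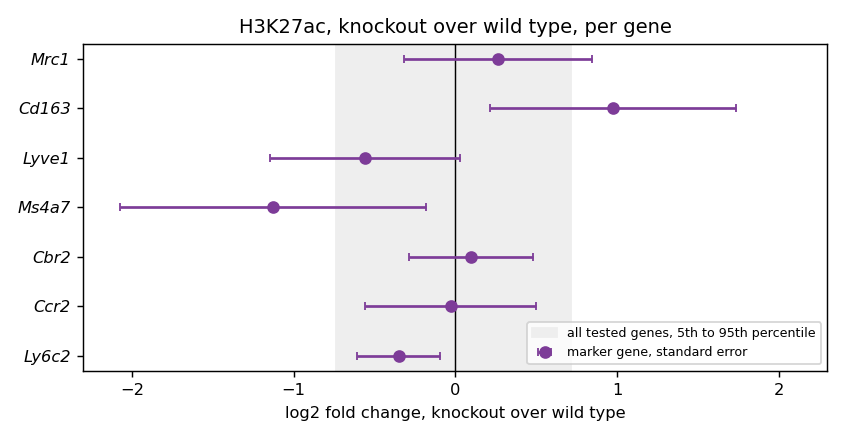
Log2 fold change of H3K27ac, knockout over wild type, with standard errors for the 7 tested markers, over the 5th to 95th percentile of all 12148 tested genes (grey). Cd163 and Ms4a7 lie outside the grey range, and none passed the test.

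As a check of the CD11b selection, the tags were also summed per library. Over all 20 windows, Ly6c2 included, summed H3K27ac stood close to input or below it. Its ratio to the mean input of the genotype, with no CPM added, was 0.701 to 1.12 in knockout libraries. In wild-type libraries it was 0.813 to 0.965. Over the 17 windows without Ly6c2 the mean CPM per window was 1.91 to 2.51 in knockout H3K27ac and 1.97 to 2.08 in wild-type H3K27ac libraries, against 0.497 to 0.723 in knockout input and 0.776 to 0.877 in wild-type input. The H3K27ac ranges of these 17 windows were above the input ranges in each genotype. They were below the median window of their libraries, which had 2.84 to 3.31 CPM in knockout and 2.89 to 3.22 in wild type. The mean per window over all genes, the like measure, was 5.67 to 6.70 CPM in knockout and 5.91 to 6.58 in wild-type H3K27ac libraries. The median H3K27ac over input of the 9 genes was 2.00, 1.89 and 3.50 in knockout replicates 1, 2 and 3, and 1.43, 1.60 and 2.04 in wild-type replicates. Knockout replicate 3 was the highest, and knockout replicates 1 and 2 lay within the wild-type range. How much of this signal came from border macrophages or monocytes in the preparation was not tested.

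Larger marker lists gave the context of the 10 genes. Of 30 border macrophage genes, the 7 above included, 26 had a window, and 16 of these (61.5%) had a promoter window. Of 25 monocyte genes 16 had a window, 11 of them (68.8%) at the promoter, and of 18 neutrophil genes 11 had a window, 5 of them (45.5%) at the promoter. Over the table that share was 73.0%. Of the border macrophage genes 20 were tested against input, with 19 higher by edgeR and a median log2 of 2.01. They were led by Slc40a1 (3.62, SE 0.13), which encodes the iron exporter ferroportin, the scavenger receptor gene Stab1 (3.58, SE 0.19) and Hpgd (3.25, SE 0.15), a prostaglandin-degrading enzyme. Of the monocyte genes 11 were tested, 10 higher and Ly6c2 lower, with a median of 1.89, led by Vamp5 (4.36, SE 0.42) and the adhesion receptor gene Cd44 (2.92, SE 0.17). Of the neutrophil genes 4 were tested and 4 were higher, with a median of 2.22, led by Csf3r (4.26, SE 0.14), the receptor for granulocyte colony-stimulating factor, then Ngp (2.51, SE 0.73) and Il1r2 (1.94, SE 0.18). Several listed genes, Stab1 and Csf3r among them, are also expressed by microglia. All 20 homeostatic microglia genes were higher, at a median of 3.58. These counts stand against the 91.6% of all genes, and the medians of the border macrophage, monocyte and neutrophil lists were under the 2.77 of all genes. The 2 other lists, 12 lymphocyte genes and 20 genes of neurons, macroglia and vessels, had medians of 2.86 over 5 tested genes and 2.11 over 9, with all tested genes higher. In every list the counts and medians against input cover only the genes that passed the filter on low counts. Genes with low input could pass it only through H3K27ac. The neutrophil list thus gave 4 tested genes out of 11 with a window. No gene of any list was called between genotypes.

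At promoters the homeostatic microglia list lay above all promoter windows and the other lists lay below them. The median H3K27ac over input of border macrophage promoter windows was 2.27 to 2.62 in knockout libraries and 1.56 to 2.51 in wild-type libraries. Monocyte promoter windows stood at 1.19 to 3.49 in knockout and 0.850 to 1.20 in wild type, and neutrophil ones at 1.97 to 2.54 in knockout and 1.67 to 2.57 in wild type. The 8 promoter windows of neuron, macroglia and vascular genes, at 1.55 to 2.46 in knockout and 1.30 to 1.86 in wild type, overlapped those 3 lists in range. The 1 lymphocyte promoter window stood at 0.608 to 1.09 in knockout and 0.931 to 2.40 in wild type. Homeostatic microglia promoters stood at 10.5 to 13.9 in knockout and 9.90 to 11.3 in wild type, and all promoter windows at 5.29 to 6.17 and 5.09 to 5.64. Single promoters of the marker lists stood higher than their list: Csf3r had 32.3 in knockout and 19.5 in wild type, Hpgd had 10.3 in knockout and 11.0 in wild type, and Slc40a1 had 11.4 in knockout and 5.72 in wild type.

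**Figure D5:**
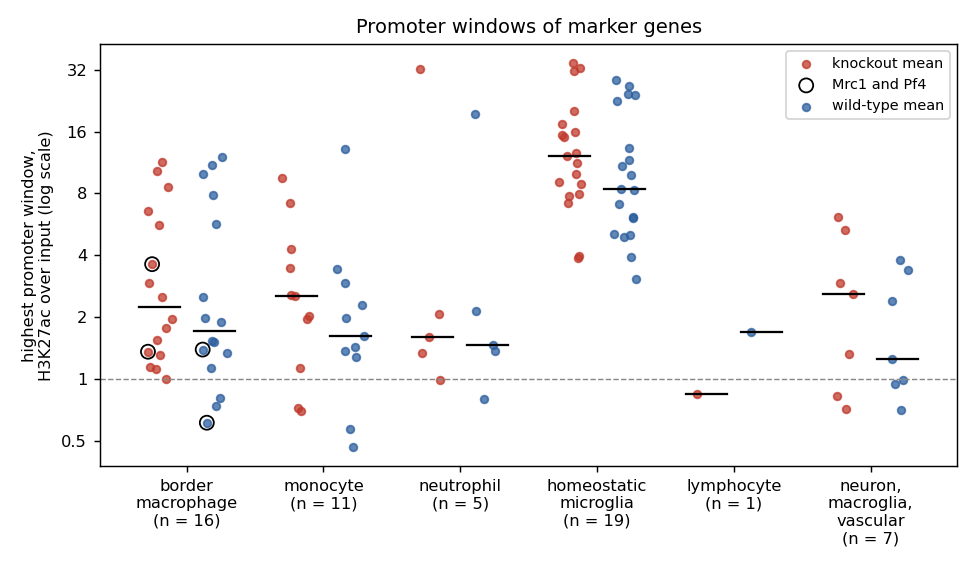
H3K27ac over input at the highest promoter window of each gene that has one, by marker list, on a log scale, with the mean over knockout libraries left of that over wild-type libraries and the list median as a line. Mrc1 and Pf4 (circled) are the 2 of the 10 markers with a promoter window, and the homeostatic microglia list lies highest.

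Among the 10 markers Ly6c2 had most H3K27ac tags. The genes whose log2 CPM followed it most closely over the 6 H3K27ac libraries were AW112010 (r = 0.99), Tspan7 (r = 0.98) and Gm4598 (r = 0.98), picked out of 12147 genes. With 6 libraries and this many genes, the r values describe these libraries only.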

How the data were processed

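H3K27ac and input chromatin of CD11b-selected forebrain microglia were sequenced in 4 groups of 3 libraries. The authors deposited unnormalized tag counts for windows of 1000 bp. Per the file headers these counts came from annotatePeaks.pl of HOMER (mm10), in windows centred on merged sites of a directory named ATAC. HOMER, mm10 and DESeq2 are the names in the submitters' processing notes. No aligner, duplicate handling or version is given in those notes. The deposited table scaled to equal totals was not used. Counts of all windows within 100 kb of a TSS were summed per gene.

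Genotypes were compared with edgeR 4.0.16 in R 4.3.3 (TMM, filterByExpr, quasi-likelihood F test, Benjamini-Hochberg over all genes or windows, threshold 0.05). H3K27ac was compared with input in a fit of all 12 libraries with all tags as library size and no TMM. Each standard error was taken as log2 fold change divided by root F. The fits were tested on simulated data, with changes placed only in genes or windows that held more tags than most marker windows. That test does not cover the sparse marker windows. Alternatives were DESeq2 1.42.0, other scalings, no filter, shorter distances, a replicate block and leaving out each library. Intervals cover counting error only.

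All 10 markers are named. Of the other lists up to 3 called genes per direction are named, with 4 microglia genes and S100a9, and the 3 genes most correlated with the marker of most tags. A further gene fixed by this rule is not reported here. The members and lists were chosen with earlier results of these data known.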

Additional observations from a re-analysis of the deposited data

How the results depend on the processing

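No marker was called between genotypes under any alternative in which markers were tested, per gene or per window; within 10 kb that was 1 marker, and within 1 kb none. The number of genes called was 25, with 48 without a filter, 16 with total-tag scaling, 11 within 10 kb, 1 within 1 kb and 8 to 18 when 1 library was left out. Windows called were 24, with 70 by DESeq2, 68 without a filter and 10 to 29 when 1 library was left out. Same-numbered libraries did not deviate together (correlations from −0.0101 to 0.0153), and the main fits did not pair them. Such correlations cannot exclude shared sources where input counts are low, and wild-type replicate 1 lacked Y-linked tags in both H3K27ac and input. A replicate block gave 15 genes, 21 windows, 4 markers above input and −0.17 for the Ly6c2 window at 26359 bases between genotypes. Under it Mrc1 (adjusted p = 0.0709) and Cd163 (0.0838) lost their edgeR calls above input.

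Against input, TMM gave 7059 called genes and 12891 windows in place of 11490 and 39468. Of these 3707 genes and 8483 windows were higher, with 0 of 7 markers and 0 of 9 marker windows higher and 4 of each lower. Its log2 values were −2.01 for Mrc1, −1.57 for Cd163, −1.88 for Lyve1, −0.76 for Ms4a7, −0.36 for Cbr2 and −0.39 for Ccr2, and per window −1.73 (Mrc1), −1.32 (Lyve1), −1.18 (Ms4a7), −0.82 (Ccr2) and −0.41 (Cbr2, upstream). TMM assumes by construction that most windows hold the same share of tags in H3K27ac and input. By DESeq2 Mrc1 was not called (adjusted p = 0.0732). Within 10 kb 1 of 2 tested markers was higher, against 94.6% of genes, and Lyve1 was at −0.070. Within 1 kb no marker could be tested. Leaving out 1 library gave 3 to 6 markers higher, 3 without knockout input replicate 3, and 0 to 1 genes with a genotype difference. In the inputs, total-tag scaling called 6 genes in place of 13, with Mrc1 at −0.14 and Ly6c2 at −0.080.

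Leaving out 1 library turned the direction of some uncalled genotype differences. Per gene these ran from −0.25 to 0.81 (Mrc1), −0.14 to 1.90 (Cd163), −0.92 to 0.030 (Lyve1), −0.050 to 0.34 (Cbr2) and −0.32 to 0.14 (Ccr2). Per window they ran from −0.84 to 0.0052 (Ly6c2 at 25687 bases), −0.92 to 0.43 (Ly6c2 at 26359), −0.31 to 0.14 (Ccr2), −0.30 to 1.38 (Cbr2 at 2315) and −0.88 to 0.00054 (Cbr2, upstream). The genotype difference of H3K27ac over input ran from −0.11 to 0.98 (Mrc1), −0.56 to 0.46 (Lyve1) and −0.013 to 0.63 (Cbr2). The cause of these shifts was not tested. Counts of 0 to 41 H3K27ac tags per library in the marker windows outside Ly6c2 limit what can be detected.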
